A study of Gossypium hirsutum with 18 samples.

Results

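The genes described here are 5 genes of upland cotton (Gossypium hirsutum) that the study named for their place in salicylic acid synthesis and perception. They were taken here by identifier. GhNPR1 is Gohir.A08G245500 and Gohir.D08G266500, GhNPR3 is Gohir.A10G045900 and Gohir.D10G047100, and GhPAL2 is Gohir.A06G074800. All 5 were found among the 54508 genes of the deposited table. Upland cotton is an allotetraploid that carries an A and a D subgenome, and the copies are called by the chromosome in their identifiers, such as GhNPR3-A10 and GhNPR3-D10. The study turned to salicylic acid genes after expression results from these same libraries, so their direction is not independent evidence about the pathway. Other genes of the pathway and markers of root cell types were not analysed here, because the RefSeq gene table at hand matched 0 of the identifiers, and no sequence is shown for the same reason.

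RNA-seq was performed on root tissue of 3 genotypes, Acala NemX (NemX, resistant to the root-knot nematode Meloidogyne incognita, RKN), Wild Mexico Jack Jones (WMJJ, moderately resistant) and Acala SJ2 (SJ2, susceptible). Seedlings were 12 days old when their roots received 5000 juveniles of RKN per plant (rkn) or water only (ctl), and roots were collected at 23 days. The 6 groups NemX_rkn, NemX_ctl, WMJJ_rkn, WMJJ_ctl, SJ2_rkn and SJ2_ctl had 3 biological replicate libraries each. Several plants were sampled per genotype and treatment, and whether a library holds 1 plant or a pool is not given in the sources used here. The genotypes are separate cultivars, so a difference between them is not that of a single resistance locus. Values are normalized values as deposited, close to CPM units, in which read counts are scaled to a common library total, with column totals between 852215 and 1096547. A single read was worth about 0.0824 to 0.359 of these units, as estimated from the low values of each library, which places the depth at about 2790000 to 12100000 reads per library. By the same estimate GhPAL2-A06 rested on about 3.07 to 101 reads per library, GhNPR1-A08 on 18 to 113, GhNPR1-D08 on 29.8 to 185, GhNPR3-A10 on 127 to 1038 and GhNPR3-D10 on 187 to 2296. In the study's own alignment statistics the first WMJJ_ctl library had the lowest percentage of pseudo-aligned reads of all libraries.

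Salicylic acid is a hormone that plants use to switch on defense against pathogens that feed on living cells, which include root-knot nematodes. In Arabidopsis, NPR1 binds salicylic acid and acts with TGA transcription factors to activate defense genes, whereas NPR3 is a related salicylic acid receptor that represses such genes and takes part in NPR1 turnover. Phenylalanine ammonia-lyase (PAL) makes cinnamic acid from phenylalanine, the entry step of the phenylpropanoid pathway, which leads to lignin, flavonoids and, by a side route, salicylic acid.

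Both copies of GhNPR3 were higher in control roots of NemX than of SJ2, and their log2 fold change on RKN infestation was higher in SJ2 than in NemX by 1.05 (A10) and 1.21 (D10). The D10 copy averaged 174 ± 19.1 in WMJJ_rkn, 153 ± 4.93 in NemX_ctl, 129.9 ± 5.88 in NemX_rkn, 102 ± 13.5 in WMJJ_ctl, 75.8 ± 3.11 in SJ2_rkn and 38.4 ± 1.31 in SJ2_ctl (mean ± SD, n = 3 libraries). GhNPR1 varied less, with a highest group mean 2.07 times the lowest for GhNPR1-A08 and 1.81 times for GhNPR1-D08. GhPAL2-A06 had group means between 1.01 in WMJJ_rkn and 13.0 in NemX_ctl, and fell in WMJJ roots after RKN infestation.

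**Figure D1:**
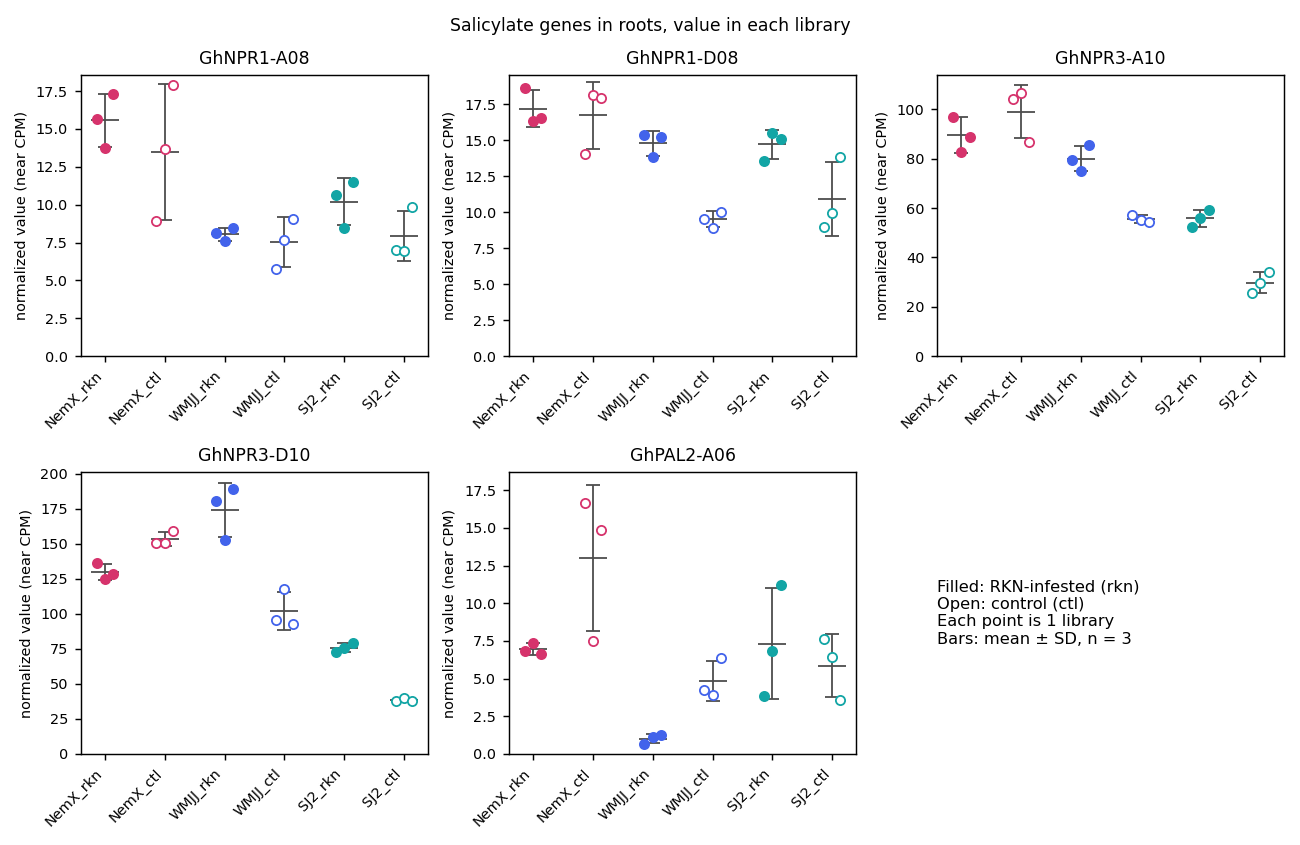
Normalized value (near CPM, vertical axis) of each gene in each of the 18 libraries, by group, with filled points for RKN-infested and open points for control roots, and bars at the mean ± SD (n = 3). GhNPR3-D10 in the SJ2_ctl libraries lay between 37.5 and 39.9, below every other library, and GhPAL2-A06 in the WMJJ_rkn libraries lay between 0.67 and 1.26, below every other library.

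All groups entered a single limma fit on log2(value + 0.5), with Benjamini-Hochberg adjustment of p over the 46813 tested genes of a comparison. To be called, a gene needed an adjusted p under 0.01 together with a log2 fold change beyond 1 in either direction, which are the thresholds the study used. The log2 fold changes below are on this log2(value + 0.5) scale, which understates the change of a low gene, and SE is the standard error of the fit.

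In control roots, the 5 genes were compared between genotypes in the absence of nematodes. Called higher in NemX_ctl than in SJ2_ctl were 2 of the 5 genes, both copies of GhNPR3, while 9.37% of all tested genes were called higher and 4.11% lower. All NemX_ctl libraries were above all SJ2_ctl libraries for 3 of the 5, as for 19.5% of tested genes. WMJJ_ctl over SJ2_ctl had 1 of the 5 called higher, GhNPR3-D10, while 7.76% of tested genes were called higher and 5.82% lower. Both GhNPR3 copies had an adjusted p under 0.01 in this comparison (18% of tested genes did) and all WMJJ_ctl libraries above all SJ2_ctl libraries (20% of tested genes did). For NemX_ctl over WMJJ_ctl, limma called 0 of the 5, while 3.74% of tested genes were called higher and 2.09% lower. In that comparison 3 of the 5 had an adjusted p under 0.01 (8.06% of tested genes), all 5 an unadjusted p under 0.05 (27.6% of tested genes), and for 4 of the 5 all NemX_ctl libraries were above all WMJJ_ctl libraries (17.7% of tested genes). The median log2 fold change of the 5 genes for NemX_ctl over SJ2_ctl was 1.07, and that of all tested genes was -0.06. In the same order, the medians were -0.08 and -0.03 for WMJJ_ctl over SJ2_ctl, and 0.78 and 0.02 for NemX_ctl over WMJJ_ctl. Bulk samples do not tell a change in the number of cells that express a gene from a change in RNA per cell.

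GhNPR3-D10, a copy of the receptor gene that represses salicylic acid responses in Arabidopsis, had values of 150.5, 150.3 and 159 in the 3 NemX_ctl libraries, against 37.5, 39.9 and 37.8 in SJ2_ctl. The lowest NemX_ctl library was far above the highest SJ2_ctl library. The log2 fold change was 1.98 (SE 0.12, limma, Benjamini-Hochberg adjusted p = 1.77e-10), and 3.57% of all tested genes had a higher one. In WMJJ_ctl the same gene had 95.9, 118 and 92.9, all above SJ2_ctl and all below NemX_ctl. Its log2 fold change was 1.39 for WMJJ_ctl over SJ2_ctl (SE 0.12, limma adjusted p = 3.50e-08) and 0.59 for NemX_ctl over WMJJ_ctl (limma adjusted p = 0.00240), and the second of these was under the fold threshold.

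GhNPR3-A10 had 104, 106 and 86.7 in NemX_ctl, against 25.5, 29.7 and 33.9 in SJ2_ctl. These libraries did not overlap either, and the log2 fold change was 1.73 (SE 0.13, limma adjusted p = 2.66e-09). Its values in WMJJ_ctl were 57.2, 55.1 and 54.4, again between those of the other genotypes. The log2 fold change was 0.90 for WMJJ_ctl over SJ2_ctl (limma adjusted p = 2.06e-05) and 0.82 for NemX_ctl over WMJJ_ctl (limma adjusted p = 1.54e-04), both below the fold threshold. Without the third SJ2_ctl library the value for WMJJ_ctl over SJ2_ctl was 1.00, just past that threshold, and GhNPR3-A10 was then called. Reads of near-identical A and D copies can be shared out between them by pseudo-alignment, so the copies were also summed. The GhNPR3 sum averaged 252 ± 5.90 in NemX_ctl, 158 ± 13.3 in WMJJ_ctl and 68.1 ± 4.57 in SJ2_ctl (n = 3), and was called for NemX_ctl over SJ2_ctl (log2 fold change 1.88) and for WMJJ_ctl over SJ2_ctl (1.20). With quantile normalization the WMJJ_ctl over SJ2_ctl value of the sum was 0.95 and was not called.

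The copies of GhNPR1, whose Arabidopsis counterpart is the main coactivator of salicylic acid responses, differed less between control roots. GhNPR1-D08 had 14.1, 18.1 and 17.95 in NemX_ctl, against 8.99, 9.91 and 13.8 in SJ2_ctl, and 9.55, 8.92 and 10.0 in WMJJ_ctl. Every NemX_ctl library was above every control library of the other genotypes, by a narrow margin of 14.1 to 13.8 at the edge with SJ2_ctl. Its log2 fold change was 0.61 over SJ2_ctl (SE 0.17, limma adjusted p = 0.00961) and 0.78 over WMJJ_ctl (SE 0.17, limma adjusted p = 0.00289). The value over SJ2_ctl depended on scaling, at 0.32 with equal library totals (limma adjusted p = 0.120), and lay between 0.49 (without the first SJ2_ctl library, adjusted p = 0.0652) and 0.78 when single libraries were left out. Over WMJJ_ctl it then lay between 0.71 and 0.89, with a limma adjusted p up to 0.0191. GhNPR1-A08 had 8.94, 13.6 and 17.9 in NemX_ctl, against 7.04, 6.97 and 9.84 in SJ2_ctl and 5.78, 7.70 and 9.08 in WMJJ_ctl, so that its lowest NemX_ctl library lay within the range of the other genotypes. The log2 fold change of GhNPR1-A08 was 0.69 over SJ2_ctl (SE 0.23, limma adjusted p = 0.0298) and 0.77 over WMJJ_ctl (limma adjusted p = 0.0259). Without the first NemX_ctl library, the value over WMJJ_ctl was 1.03 and GhNPR1-A08 was called, whereas without the third it was 0.55 over WMJJ_ctl (limma adjusted p = 0.142) and 0.47 over SJ2_ctl (0.170), and with equal library totals it was 0.41 over SJ2_ctl. The GhNPR1 sum of both copies was not called, at 0.66 over SJ2_ctl (0.37 with equal library totals) and 0.79 over WMJJ_ctl.

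GhPAL2-A06, of the PAL family that feeds the phenylpropanoid pathway, had 16.6, 7.49 and 14.8 in NemX_ctl, against 7.60, 6.42 and 3.56 in SJ2_ctl and 4.24, 3.94 and 6.37 in WMJJ_ctl. Its second NemX_ctl library lay inside the SJ2_ctl range, while the other two were above every other control library. The log2 fold change was 1.07 over SJ2_ctl (SE 0.35, limma adjusted p = 0.0276) and 1.29 over WMJJ_ctl (SE 0.35, limma adjusted p = 0.0151), past the fold threshold in both cases but not past that on the adjusted p. Without the second NemX_ctl library the values were 1.41 and 1.63, and GhPAL2-A06 was called in both comparisons. Over SJ2_ctl it was under the fold threshold, at 0.77 without the third SJ2_ctl library (limma adjusted p = 0.157), at 0.86 without the first and at 0.94 without the third NemX_ctl library, and at 0.79 with equal library totals. It was also called for NemX_ctl over WMJJ_ctl, at the same 1.29, without the first or the third SJ2_rkn library.

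The response to RKN was then compared within each genotype. In SJ2_rkn over SJ2_ctl limma called 0 of the 5 genes, while 8.09% of tested genes were called higher and 5.92% lower. Of the 5, 3 had an unadjusted p under 0.05 (38.6% of tested genes), and both GhNPR3 copies had an adjusted p under 0.01 (19.5% of tested genes) and all SJ2_rkn libraries above all SJ2_ctl libraries (20.6%). In WMJJ_rkn over WMJJ_ctl, 1 of the 5 was called, GhPAL2-A06 as lower, while 4.84% of tested genes were called lower and 5.6% higher. There 3 of the 5 had an adjusted p under 0.01 (14.5% of tested genes), the infested libraries were all above the control libraries for 3 of the 5 (19.1%), and all below them for GhPAL2-A06 (17.5%). In NemX_rkn over NemX_ctl limma called 0 of the 5, while 0.568% of tested genes were called higher and 0.666% lower. An unadjusted p under 0.05 was found there for 1 of the 5, GhPAL2-A06 (17.4% of tested genes), and 2 of the 5 had all NemX_rkn libraries below all NemX_ctl libraries (11.9% of tested genes). The median log2 fold change of the 5 genes was 0.44 in SJ2, 0.52 in WMJJ and -0.14 in NemX, and the median of all tested genes was -0.04 in SJ2, -0.0039 in WMJJ and -0.02 in NemX.

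Both copies of GhNPR3 had higher values in infested than in control roots of SJ2 and WMJJ, without reaching the fold threshold. GhNPR3-D10 had 72.7, 75.7 and 79.0 in SJ2_rkn, against 37.5 to 39.9 in SJ2_ctl, a log2 fold change of 0.97 (SE 0.12, limma adjusted p = 4.30e-06). In WMJJ_rkn it had 180.2, 153 and 189, all above the WMJJ_ctl libraries, and the log2 fold change was 0.77 (SE 0.12, limma adjusted p = 1.07e-04). In NemX_rkn it had 136, 125 and 128, all below the NemX_ctl libraries, but the log2 fold change of -0.24 was not past the threshold (SE 0.12, limma adjusted p = 0.344). The value in SJ2 lay so close to the fold threshold that GhNPR3-D10 was called, at 1.00, without the first SJ2_rkn library, and at 1.01 with median-of-ratios scaling.

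GhNPR3-A10 had 52.4, 56.0 and 59.3 in SJ2_rkn, against the SJ2_ctl values of 25.5 to 33.9. The libraries did not overlap, and the log2 fold change was 0.91 (SE 0.13, limma adjusted p = 1.90e-05). In WMJJ_rkn the same copy had 79.3, 75.2 and 85.5, all above WMJJ_ctl, with a log2 fold change of 0.52 (limma adjusted p = 0.00602). The NemX_rkn values of 97.0, 82.5 and 88.8 overlapped those of NemX_ctl, with a log2 fold change of -0.14 (limma adjusted p = 0.653). Without the third SJ2_ctl library, GhNPR3-A10 was called in SJ2 at 1.01.

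**Figure D2:**
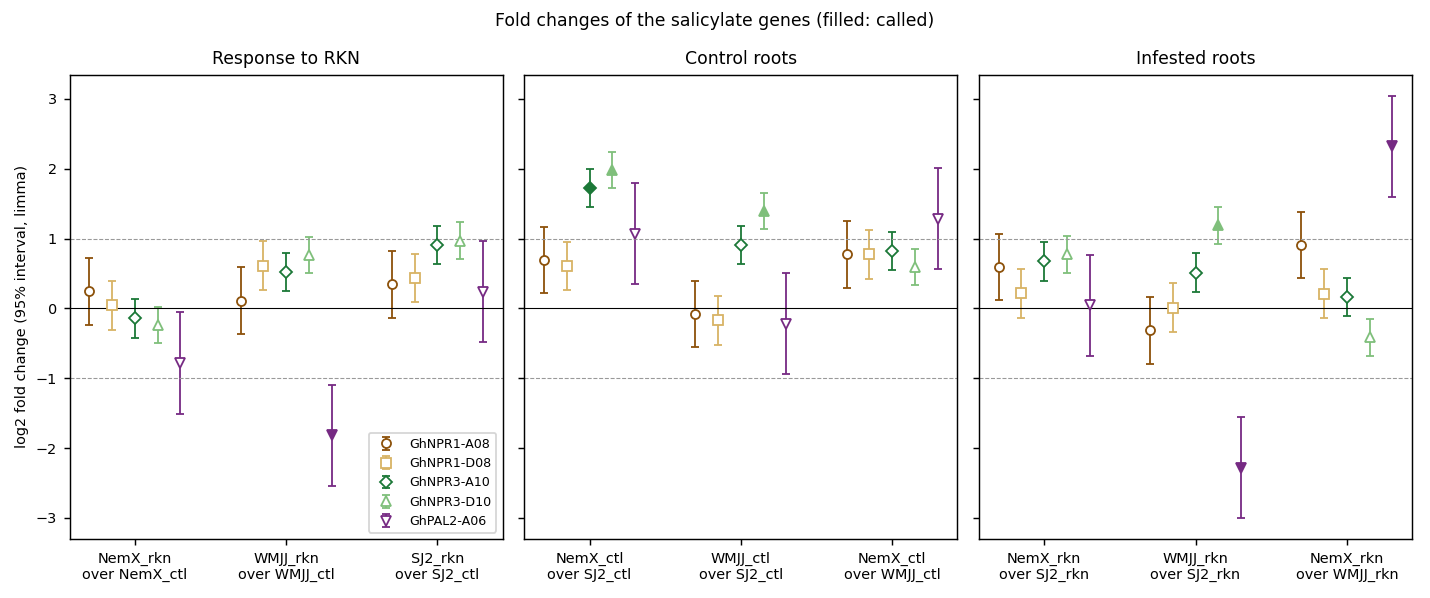
Log2 fold change (vertical axis, limma on log2(value + 0.5)) of the 5 genes with its 95% interval, for the responses to RKN, the control roots and the infested roots of pairs of genotypes. Filled symbols are called genes, dashed lines mark the fold threshold of 1 in either direction, and the lowest value is -2.28, for GhPAL2-A06 in WMJJ_rkn over SJ2_rkn.

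GhNPR1-D08 had 15.3, 13.8 and 15.2 in WMJJ_rkn, each above the WMJJ_ctl libraries, which lay between 8.92 and 10.0. The log2 fold change was 0.61 (SE 0.17), with a limma adjusted p of 0.0105. In SJ2_rkn its values of 13.6, 15.5 and 15.1 overlapped the highest SJ2_ctl library at 13.8, with a log2 fold change of 0.44 (limma adjusted p = 0.0559). In NemX_rkn it had 18.6, 16.4 and 16.6, which overlapped NemX_ctl, and the log2 fold change was 0.05 with a 95% interval between -0.30 and 0.40. GhNPR1-A08 had 15.7, 13.7 and 17.3 in NemX_rkn, 8.11, 7.59 and 8.44 in WMJJ_rkn, and 10.6, 8.47 and 11.5 in SJ2_rkn, and in each genotype its infested and control libraries overlapped. Its log2 fold changes were 0.25 in NemX, 0.11 in WMJJ and 0.35 in SJ2, with limma adjusted p-values between 0.285 and 0.784.

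GhPAL2-A06 had 0.67, 1.096 and 1.26 in WMJJ_rkn, against 4.24, 3.94 and 6.37 in WMJJ_ctl. The libraries did not overlap, and GhPAL2-A06 fell by 1.82 on the log2 scale (SE 0.35, limma adjusted p = 5.87e-04). These low values rest on few reads, about 22.5 in the 3 WMJJ_rkn libraries together, against about 71.7 in the WMJJ_ctl libraries. For GhPAL2 only the A06 copy was taken, so no sum of copies was made. Whether its reads were shared out with another copy was not tested. In NemX_rkn the gene had 6.84, 7.40 and 6.60, all below the lowest NemX_ctl library at 7.49, but the log2 fold change of -0.78 did not pass the test (SE 0.35, limma adjusted p = 0.243). In SJ2_rkn it had 3.87, 6.85 and 11.2, which overlapped the range of SJ2_ctl, 3.56 to 7.60, and the log2 fold change was 0.24 with a 95% interval between -0.48 and 0.97.

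Whether the response differed between genotypes was tested as a difference of log2 fold changes. For the SJ2 response minus the NemX response, 2 of the 5 genes were called, both copies of GhNPR3, where 5.22% of tested genes were called higher. The difference was 1.21 for GhNPR3-D10 (SE 0.18, limma adjusted p = 6.57e-05) and 1.05 for GhNPR3-A10 (SE 0.19, limma adjusted p = 4.90e-04). With equal library totals, which shifted the median of all tested genes by -0.22 in this comparison, the values were 0.98 and 0.82, under the fold threshold but with limma adjusted p-values of 6.03e-04 and 0.00361. GhNPR3-A10 was also under the fold threshold, at 1.00 after rounding, without the second NemX_ctl or the second NemX_rkn library, and at 0.95 without the first SJ2_ctl library. GhNPR3-D10 was called without any of the libraries in turn, between 1.18 and 1.24. With quantile normalization neither copy was called, at 0.91 for GhNPR3-D10 and 0.84 for GhNPR3-A10. The GhNPR3 sum of both copies had a difference of 1.15 (SE 0.17, limma adjusted p = 9.93e-05), which was likewise not called with equal library totals (0.92) or quantile normalization (0.76).

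For the WMJJ response minus the NemX response, 1 of the 5 genes was called, GhNPR3-D10, where 1.05% of tested genes were called higher. Its difference of 1.01 (SE 0.18, limma adjusted p = 0.00245) was at the edge of the fold threshold. It was 0.94 without the third WMJJ_ctl or the third WMJJ_rkn library, 0.96 with the first WMJJ_ctl library left out, 0.98 without the second NemX_rkn, the third NemX_ctl or the first WMJJ_rkn library, and 1.00 without NemX_rkn library 3, and was called in none of these 7 fits. GhNPR3-A10 had a difference of 0.66 (limma adjusted p = 0.0476). For the SJ2 response minus the WMJJ response, 1 of the 5 genes was called, GhPAL2-A06, where 3.95% of tested genes were called higher. Its difference was 2.06 (SE 0.49, limma adjusted p = 0.00880). The call rested on all libraries together, since it was kept in only 4 of the 18 fits that left out a library, those without the first or the second NemX_ctl, the first SJ2_ctl or the first SJ2_rkn library, with values between 1.71 and 2.42 and limma adjusted p-values up to 0.0303 over the 18 fits. The GhNPR3 copies had differences of 0.20 (D10) and 0.39 (A10) between SJ2 and WMJJ, with limma adjusted p-values of 0.601 and 0.241.

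In infested roots the genotypes were compared with each other. In NemX_rkn over SJ2_rkn limma called 0 of the 5 genes, while 2.88% of tested genes were called higher and 1.81% lower, and 3 of the 5 had an unadjusted p under 0.05 (25.7% of tested genes). Both GhNPR3 copies had an adjusted p under 0.01 (6.68% of tested genes), with log2 fold changes of 0.77 for D10 (limma adjusted p = 2.98e-04) and 0.67 for A10 (limma adjusted p = 0.00159). For 4 of the 5 genes, all but GhPAL2-A06, every NemX_rkn library was above every SJ2_rkn library, as for 16% of tested genes. In WMJJ_rkn over SJ2_rkn, GhNPR3-D10 was called higher at 1.19 (SE 0.12, limma adjusted p = 8.90e-07) and GhPAL2-A06 lower at -2.28 (SE 0.35, limma adjusted p = 1.01e-04). That is 1 of the 5 in each direction, while 2.6% of tested genes were called higher and 2.87% lower. The libraries were all higher in WMJJ_rkn for both GhNPR3 copies (14.2% of tested genes) and all lower for 2 of the 5, GhNPR1-A08 and GhPAL2-A06 (13.9%). In NemX_rkn over WMJJ_rkn, 1 of the 5 was called, GhPAL2-A06 higher at 2.32 (SE 0.35, limma adjusted p = 6.09e-05), while 4.96% of tested genes were called higher and 3.45% lower. In this comparison 2 of the 5 had an adjusted p under 0.01 (11.7% of tested genes), 3 had all NemX_rkn libraries above all WMJJ_rkn libraries (18.2%) and 1 had them all below (16.4%). Among the 3 was GhNPR1-A08, whose log2 fold change was 0.91 (SE 0.23, limma adjusted p = 0.00719), while GhNPR3-D10 was lower in every NemX_rkn library at -0.41 (limma adjusted p = 0.0222).

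The order of the group means was not the same for the 5 genes. For GhNPR3-D10 the order was WMJJ_rkn, NemX_ctl, NemX_rkn, WMJJ_ctl, SJ2_rkn and SJ2_ctl, and only SJ2_rkn and SJ2_ctl, of its neighbours, differed at a limma adjusted p below 0.01. For GhNPR3-A10 it was NemX_ctl, NemX_rkn, WMJJ_rkn, SJ2_rkn, WMJJ_ctl and SJ2_ctl, with means of 99.0 ± 10.8, 89.4 ± 7.28, 80.0 ± 5.22, 55.9 ± 3.49, 55.6 ± 1.44 and 29.7 ± 4.22 (SD, n = 3), and only WMJJ_ctl and SJ2_ctl, of its neighbours, differed at that level. Control WMJJ roots and infested SJ2 roots had nearly the same GhNPR3-A10 level, with a log2 fold change of -0.01 for WMJJ_ctl over SJ2_rkn and a 95% interval between -0.28 and 0.27. GhNPR3-D10 was higher in NemX_ctl than in SJ2_rkn, at 1.01 (limma adjusted p = 3.90e-06), and 7.2% of tested genes were called higher in this comparison.

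For GhNPR1-A08 the means were 15.6 ± 1.77 in NemX_rkn, 13.5 ± 4.49 in NemX_ctl, 10.2 ± 1.56 in SJ2_rkn, 8.05 ± 0.43 in WMJJ_rkn, 7.95 ± 1.64 in SJ2_ctl and 7.52 ± 1.66 in WMJJ_ctl (SD, n = 3). The lowest limma adjusted p between neighbours in this order was 0.287, between NemX_ctl and SJ2_rkn. For GhNPR1-D08 the means were 17.2 ± 1.27 in NemX_rkn, 16.7 ± 2.30 in NemX_ctl, 14.8 ± 0.87 in WMJJ_rkn, 14.7 ± 1.00 in SJ2_rkn, 10.9 ± 2.56 in SJ2_ctl and 9.50 ± 0.55 in WMJJ_ctl, and the step with the lowest limma adjusted p, 0.0559, lay between SJ2_rkn and SJ2_ctl. For GhPAL2-A06 the means were 13.0 ± 4.84 in NemX_ctl, 7.31 ± 3.69 in SJ2_rkn, 6.95 ± 0.41 in NemX_rkn, 5.86 ± 2.08 in SJ2_ctl, 4.85 ± 1.33 in WMJJ_ctl and 1.01 ± 0.31 in WMJJ_rkn, and among neighbours the step between WMJJ_rkn and WMJJ_ctl was the only one with a limma adjusted p below 0.01.

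The A and D copies were also set against each other, since a ratio within a library does not depend on how libraries were scaled. For GhNPR3 the value of the A10 copy over that of the D10 copy was 0.711, 0.660 and 0.692 in NemX_rkn and 0.691, 0.708 and 0.545 in NemX_ctl. It was 0.440, 0.493 and 0.452 in WMJJ_rkn and 0.597, 0.468 and 0.586 in WMJJ_ctl. In SJ2_rkn it was 0.720, 0.739 and 0.751, and in SJ2_ctl 0.679, 0.744 and 0.896. The value of the D10 copy was therefore above that of the A10 copy in every library. Whether the values are corrected for transcript length is not given in the sources used here, so this does not rank the copies by expression. The 6 WMJJ libraries, between 0.440 and 0.597, did not overlap the 6 SJ2 libraries, between 0.679 and 0.896. Reads of all genotypes were pseudo-aligned to the same reference transcripts. Whether reads were shared out between the copies in the same way in each genotype was not tested. The mean log2 ratio was -0.99 in WMJJ and -0.41 in SJ2, a difference of -0.58. A two-sided exact permutation test that exchanged genotypes within each treatment gave p = 0.005, the smallest its 400 labellings allow (adjusted p = 0.04 over 8 tests). The differences for NemX over SJ2 (-0.18) and NemX over WMJJ (0.40) had adjusted p-values of 0.0533 in the exact permutation test, and infested minus control libraries differed by -0.07 (adjusted p = 0.372). Without the second WMJJ_ctl library, the difference of WMJJ over SJ2 was -0.53 with an adjusted p of 0.0533 in the same exact test. NemX over WMJJ had an adjusted p of 0.02 without the third NemX_ctl library (0.46) and 0.04 without the first SJ2_ctl library, and NemX over SJ2 had 0.02 without the first SJ2_ctl library (-0.22), in the same exact test.

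For GhNPR1 the ratio of the A08 copy to the D08 copy lay between 0.636 and 1.04 in the NemX libraries, between 0.529 and 0.905 in WMJJ and between 0.547 and 0.783 in SJ2. In the WMJJ_rkn libraries it was 0.529, 0.550 and 0.554, a tight group below all 3 WMJJ_ctl libraries at 0.605, 0.863 and 0.905. None of the 4 tests on this ratio passed, with adjusted p-values between 0.17 and 0.372 in the exact permutation test. The test of infested against control libraries took all genotypes together, so the difference within WMJJ was not tested. In NemX the mean ratio went the other way, from 0.80 in NemX_ctl to 0.91 in NemX_rkn.

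**Figure D3:**
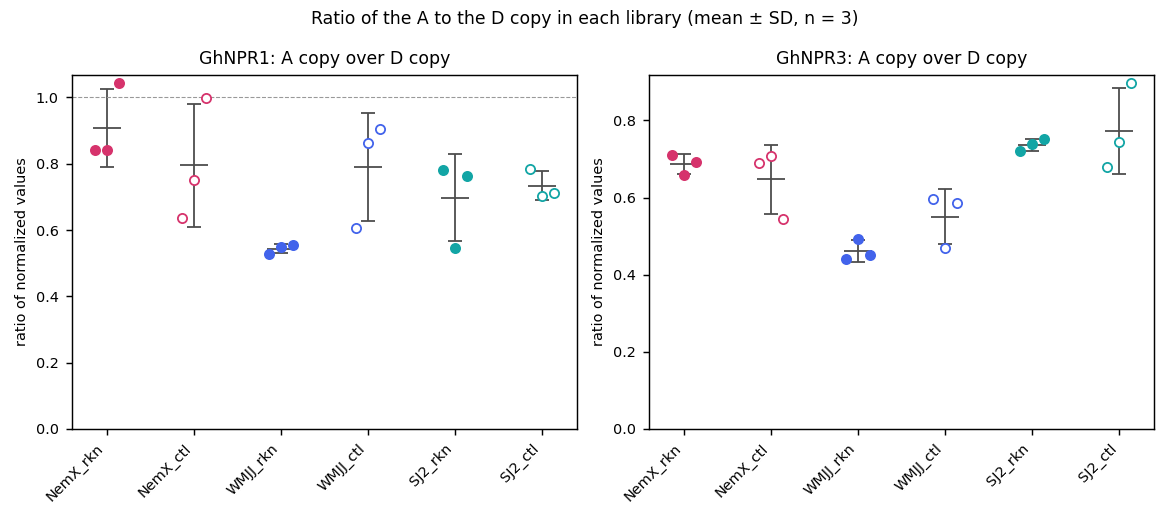
Value of the A copy over that of the D copy (vertical axis, no unit) in each of the 18 libraries for GhNPR1 and GhNPR3, with filled points for RKN-infested and open points for control roots and bars at the mean ± SD (n = 3). For GhNPR3 the WMJJ libraries lay between 0.440 and 0.597 and the SJ2 libraries between 0.679 and 0.896, and the dashed line in the GhNPR1 panel marks equal values of the copies.

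Over the 18 libraries, which share genotypes and treatments, the log2 values of the GhNPR3 copies had a Pearson correlation of 0.93 with each other, and those of the GhNPR1 copies 0.78. Among all 46812 other tested genes, GhNPR3-A10 stood at rank 47 by correlation with GhNPR3-D10, and GhNPR3-D10 at rank 66 by correlation with GhNPR3-A10. GhNPR1-D08 stood at rank 163 by correlation with GhNPR1-A08, and GhNPR1-A08 at rank 338 by correlation with GhNPR1-D08. GhPAL2-A06 followed neither receptor gene, with correlations of 0.02 and -0.21 with the GhNPR3 copies and of 0.43 and 0.08 with the GhNPR1 copies. The genes most like GhNPR3-D10 were Gohir.A11G315800, Gohir.A04G106800 and Gohir.D07G191900 (r = 0.97 each), and those most like GhNPR3-A10 were Gohir.D11G321900, Gohir.D04G027400 and Gohir.D05G165000 (r = 0.97 each). For GhNPR1-D08 they were Gohir.D03G011000, Gohir.D13G080700 and Gohir.D08G205300 (r between 0.94 and 0.95), and for GhNPR1-A08 Gohir.A13G146000, Gohir.A03G018201 and Gohir.A03G166200 (r between 0.88 and 0.93). Those most like GhPAL2-A06 were Gohir.D13G133900, Gohir.D02G169200 and Gohir.A01G054700 (r between 0.90 and 0.92). Gohir.D13G133900 averaged 9.002 in WMJJ_rkn and 58.5 in WMJJ_ctl, and GhPAL2-A06 was likewise lower in WMJJ_rkn. Over all groups the order was not the same, since Gohir.D13G133900 averaged 58.5 in WMJJ_ctl against 46.5 in SJ2_ctl. These identifiers carry no gene names here.

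The genes that lie next to the 5 by the number in their identifiers were compared as well, taking the 10 nearest tested identifiers of each. In NemX_ctl over SJ2_ctl, 1 of the 10 beside GhNPR3-D10 and 1 of the 10 beside GhNPR3-A10 were called higher, while 9.37% of all tested genes were. There 3 of the 10 beside GhNPR1-A08, 2 beside GhNPR1-D08 and 0 beside GhPAL2-A06 were called higher. Called lower was 1 of the 10 beside GhNPR1-D08, while 4.11% of tested genes were called lower. For the SJ2 response minus the NemX response, 0 of the 10 beside GhNPR3-D10, GhNPR3-A10 or GhPAL2-A06 were called higher. Beside each GhNPR1 copy 1 of the 10 was, while 5.22% of tested genes were called higher. Called lower were 2 beside GhNPR3-D10 and 1 beside GhNPR3-A10, and the share of all tested genes called lower was not taken. In WMJJ_rkn over WMJJ_ctl, 1 of the 10 beside GhPAL2-A06 was called lower, while 4.84% of tested genes were.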

How the data were processed

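Root RNA from 18 libraries, 3 in each of 6 groups, was sequenced. Per the labels and the study's methods, reads were checked with FastQC (0.11.9), trimmed with Trimmomatic (0.39), pseudo-aligned with kallisto (0.46.1) to the transcripts of the TM-1 genome and summed to genes with tximport, and edgeR (3.13) and DESeq2 were used downstream. The deposited signal values are normalized expression, close to CPM but with a further factor per library, and which step gave them and how genes were filtered is not given in the sources used here. Part of the samples was prepared with another, stranded kit, and the labels do not say which, so its part in the results was not tested. Low values between 0.5 and 3.5 estimated reads were within 0.1 of a whole number in only 61.1% to 71.1% of cases per library, so read counts were not recovered and no count test was run. Estimated reads carry counting error, so the rarest gene here, GhPAL2-A06, is the least precise.

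Groups were taken from the labels, and the members and lists were chosen with earlier results of these data known. Of 54508 genes, 46813 whose mean reached 1 were tested, 7695 were left out, and all 5 genes passed. The low-value filter used the mean over all libraries. Limma (3.58.1, R 4.3.3) was run on log2(value + 0.5) with 1 coefficient per group, a trend of variance with intensity and Benjamini-Hochberg adjustment within each comparison. Calls needed an adjusted p under 0.01 together with a log2 fold change beyond 1 in either direction. The fit was tested on simulated data. Sums of A and D copies were added to the same fit. Ratios of copies were tested by exact permutation within the other factor and adjusted over 8 tests. Besides the 5 genes, the text names the 3 genes with the highest Pearson correlation to each. Gene names follow the study, and 0 identifiers matched the 99454 genes of the RefSeq table (assembly Gossypium_hirsutum_v2.1). Replicates are biological per the study's methods.

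The replicate numbers shared by the groups were checked by correlating the deviations of libraries from their group means. For NemX_ctl and SJ2_ctl every same-numbered pair had a correlation above 0.1 (between 0.11 and 0.27). In every other comparison at least 1 same-numbered pair had a lower correlation. The pair with the highest correlation in every comparison was that of the deepest libraries of the groups compared. Its correlation lay between 0.19, for NemX_rkn and WMJJ_rkn, and 0.44, for WMJJ_rkn and WMJJ_ctl. The deepest library was the third of each group except NemX_rkn, where it was the first. The main fit had no term for replicate number, which entered only as the replicate block among the alternatives. The first NemX_rkn and the third NemX_ctl library, each the deepest of its group, had a correlation of 0.35. The third NemX_rkn and the third NemX_ctl library had -0.22. What the shared numbers and the likeness of the deepest libraries stand for was not tested. Alternatives covered the filter, pseudocount, scaling, variance trend, thresholds, replicate block, the libraries in the fit and leaving out each library.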

Additional observations from a re-analysis of the deposited data

Results flagged for a closer look

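Some responses to RKN differed between genotypes by limma's test of the difference itself. The SJ2 response minus the NemX response was 1.21 on the log2 scale for GhNPR3-D10 and 1.05 for GhNPR3-A10, where 5.22% of tested genes were called higher. The WMJJ response minus the NemX response was 1.01 for GhNPR3-D10, where 1.05% were called higher. The SJ2 response minus the WMJJ response was 2.06 for GhPAL2-A06, where 3.95% were called higher. None of these calls was free of the settings. Those of the SJ2 response minus the NemX response were lost with equal library totals and with quantile normalization. With single libraries left out, the WMJJ minus NemX call was kept in 11 of 18 fits and the SJ2 minus WMJJ call in 4 of 18.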

How the results depend on the processing

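The calls of both GhNPR3 copies in NemX_ctl over SJ2_ctl held under every alternative run, whereas calls close to a threshold moved. Counts of the 5 genes called were as follows. The share of all tested genes was taken only for the setting without the fold threshold, so counts under the other settings have no share beside them. Without the fold threshold they were 3 in WMJJ_rkn over WMJJ_ctl (14.5% of tested genes), 2 in SJ2_rkn over SJ2_ctl (19.5%) and 2 in WMJJ_ctl over SJ2_ctl (18%). They were 3 in NemX_ctl over WMJJ_ctl (8.06%), 2 in NemX_rkn over SJ2_rkn (6.68%) and 2 in NemX_rkn over WMJJ_rkn (11.7%). In NemX_ctl over WMJJ_ctl the count was 1 with an adjusted p below 0.05 as the threshold, and 1 with a term for the deepest library of each group, an alternative chosen after seeing the data. Median-of-ratios scaling gave 1 in SJ2_rkn over SJ2_ctl and 0 for WMJJ minus NemX responses. The count for SJ2 minus NemX responses was 0 with equal library totals and 0 with quantile normalization. For WMJJ minus NemX responses it was 0 with equal totals, 0 with quantile normalization and 0 without the variance trend. For SJ2 minus WMJJ responses it was 0 with equal totals, 0 without the trend, 0 with a pseudocount of 1 and 0 with the compared libraries alone. Leaving out each library gave counts of 0 to 1 in SJ2_rkn over SJ2_ctl, 1 to 2 in WMJJ_ctl over SJ2_ctl, 0 to 1 in NemX_ctl over WMJJ_ctl, 1 to 2 for SJ2 minus NemX responses, 0 to 1 for WMJJ minus NemX responses and 0 to 1 for SJ2 minus WMJJ responses. The adjusted p of GhNPR1-A08 in NemX_rkn over WMJJ_rkn, of GhNPR3-A10 in WMJJ_rkn over WMJJ_ctl and in NemX_rkn over SJ2_rkn, and of GhNPR3-D10 in NemX_ctl over WMJJ_ctl, all under 0.01 in limma with every library, reached 0.0373, 0.0280, 0.0132 and 0.0168 with single libraries left out. Likewise, the limma adjusted p of GhNPR1-D08 in NemX_ctl over WMJJ_ctl reached 0.0191. That of the GhNPR1 sum reached 0.0212 in NemX_ctl over WMJJ_ctl and 0.0396 in NemX_ctl over SJ2_ctl. The causes were not tested.

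Equal library totals shifted the median of all tested genes by -0.28 in NemX_ctl over SJ2_ctl, where GhNPR3-D10 was at 1.69 and GhNPR3-A10 at 1.43, both called, and GhNPR1-D08 was at 0.32, GhNPR1-A08 at 0.41 and GhPAL2-A06 at 0.79, none called. The replicate block changed no count of called genes, and the only call it changed was the GhNPR3 copy ratio of WMJJ over SJ2, still -0.58, whose adjusted p in the exact permutation test was 0.167 with fewer labellings. Fewer labellings limit how small that p can be, so the lost call says little about the ratio. The block follows replicate number, whereas the first NemX_rkn library correlated with the third NemX_ctl library (0.35). It therefore does not test for what the deepest libraries share. Leaving out libraries gave -0.63 to -0.53 for that ratio, 0.35 to 0.46 for NemX over WMJJ (adjusted p down to 0.02) and -0.22 to -0.12 for NemX over SJ2 (adjusted p down to 0.02, exact permutation test). Of the 3 genes most like a given gene, rank correlation kept 1 for each of GhNPR1-D08, GhNPR3-A10, GhNPR3-D10 and GhPAL2-A06. Deviations from genotype means kept 1 for GhNPR1-D08, 1 for GhNPR3-A10 and 0 for GhNPR1-A08, GhNPR3-D10 and GhPAL2-A06.

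Sign changes occurred only in values that were not called. Equal totals gave -0.12 for GhNPR1-A08 in SJ2 minus NemX responses and -0.017 for GhPAL2-A06 in NemX_rkn over SJ2_rkn, and median-of-ratios scaling gave -0.017 for GhNPR1-D08 in WMJJ_rkn over SJ2_rkn. Leaving out libraries gave, for GhNPR1-A08, -0.012 to 0.47 in NemX_rkn over NemX_ctl, -0.22 to 0.086 in WMJJ_ctl over SJ2_ctl, -0.053 to 0.25 in WMJJ_rkn over WMJJ_ctl, -0.12 to 0.36 in SJ2 minus NemX responses and -0.36 to 0.12 in WMJJ minus NemX responses. It gave, for GhNPR1-D08, -0.070 to 0.11 in NemX_rkn over NemX_ctl, -0.29 to 0.0072 in WMJJ_ctl over SJ2_ctl and -0.046 to 0.057 in WMJJ_rkn over SJ2_rkn. For the GhNPR1 sum it gave -0.045 to 0.27 in NemX_rkn over NemX_ctl and -0.23 to 0.042 in WMJJ_ctl over SJ2_ctl, and for GhPAL2-A06 -0.32 to 0.39 in NemX_rkn over SJ2_rkn and -0.11 to 0.60 in SJ2_rkn over SJ2_ctl. Depth limits GhPAL2-A06 most, with about 3.07 reads in the lowest library, against about 187 or more for GhNPR3-D10.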
